A study of Caenorhabditis elegans with 2 samples.

Results

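The 8 genes described here encode the RNA parts of small ribonucleoprotein machines in Caenorhabditis elegans: rpr-1 (the RNA of RNase P), mrpr-1 (the RNA of RNase MRP), srpr-1.1, srpr-1.2, srpr-2.1, srpr-2.2 and srpr-3 (RNAs of the signal recognition particle, SRP) and yrn-1 (the Y RNA). They were chosen by name from the 46890 nuclear genes of the annotation, knowing that peaks of these data lay at some of them, so their nearness to a peak is a description and no test is given for it. The data are chromatin immunoprecipitation with sequencing (ChIP-seq), which maps where a tagged protein sits on the genome, from whole mid-embryos at 3.5 hours, synchronised by egg bleaching. There was 1 group of 2 biological replicates, both of strain OP787. Its transgene wgIs787 carries T27A8.2 fused to a TY1 EGFP 3xFLAG tag and a working unc-119(+), in worms with the mutant allele unc-119 (tm4063), and an anti-GFP antibody pulled down the tagged protein. The labels name the target tab-1, but the genotype tags T27A8.2, and the annotation lists these as different genes; "labelled tab-1" is therefore used for both replicates. A control experiment named in the labels was not used here, and the read depth is unknown.

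RNase P is the enzyme that trims the 5′ leader from precursor tRNAs, and RNase MRP, its close relative with many of the same proteins, processes precursor ribosomal RNA. The SRP binds the signal peptide of a nascent secretory or membrane protein and docks the ribosome at the endoplasmic reticulum, with its RNA as the scaffold. Y RNAs are small RNAs held by the Ro60 protein, ROP-1 in the worm, and take part in RNA quality control. In vertebrates all of these RNAs are products of RNA polymerase III. There, RNase P, MRP and Y RNA genes use promoter elements upstream of the gene that include a TATA-like box, whereas tRNA genes use boxes A and B inside the gene.

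Sequence around the gene starts shows what the members share before any peak is considered. The stretches below run 5′ to 3′ on the gene strand, from 50 bases before the annotated start to 70 bases into the gene, on WBcel235 (ce11). Capitals mark GTATATA in mrpr-1 and yrn-1, and GAAAAACC in 4 SRP RNA genes. Both words were found by comparing the members' own upstream sequences.
mrpr-1 chrII:7200183-7200302 (+): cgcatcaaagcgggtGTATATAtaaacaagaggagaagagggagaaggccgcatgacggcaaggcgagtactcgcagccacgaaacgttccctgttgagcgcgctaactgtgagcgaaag
yrn-1 chrIV:7499458-7499577 (+): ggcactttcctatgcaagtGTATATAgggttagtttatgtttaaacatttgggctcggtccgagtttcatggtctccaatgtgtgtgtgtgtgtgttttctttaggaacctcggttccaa
srpr-1.1 chrIII:4379137-4379256 (−): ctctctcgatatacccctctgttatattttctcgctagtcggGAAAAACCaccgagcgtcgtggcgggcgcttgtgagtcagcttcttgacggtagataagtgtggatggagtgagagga
srpr-1.2 chrIII:4369418-4369537 (+): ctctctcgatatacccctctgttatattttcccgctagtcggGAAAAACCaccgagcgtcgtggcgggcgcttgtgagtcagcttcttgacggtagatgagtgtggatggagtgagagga
srpr-2.1 chrIII:5211170-5211289 (+): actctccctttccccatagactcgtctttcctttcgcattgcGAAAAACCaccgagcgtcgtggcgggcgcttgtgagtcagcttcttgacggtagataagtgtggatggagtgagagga
srpr-2.2 chrIII:5031639-5031758 (−): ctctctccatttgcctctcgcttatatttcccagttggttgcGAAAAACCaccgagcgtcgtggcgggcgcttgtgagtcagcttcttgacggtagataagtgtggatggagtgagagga
srpr-3 chrV:9293563-9293682 (−): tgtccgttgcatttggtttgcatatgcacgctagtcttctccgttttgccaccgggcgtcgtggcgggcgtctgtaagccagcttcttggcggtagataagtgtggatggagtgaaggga
In these lines the 4 SRP RNA genes of chromosome III are almost alike from GAAAAACC onwards and differ before it, except that srpr-1.1 and srpr-1.2 are also alike upstream.

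In the lists of both replicates together, the authors deposited a conservative list of 1313 peaks kept by their irreproducible discovery rate (IDR), a measure of how well peaks of 2 sets rank alike, and a longer list of 1559 peaks called the other list below. Replicate 1 and replicate 2 each had a list of their own, of 464 and 756 peaks. Each peak has a summit, its highest point, and a signal in the peak caller's units, whose scale is not stated. A percentile is the share of a list's peaks with a lower signal. Summit positions count from 0 at the first base of the gene, with negative values before it. Of the 8 genes, 7 had a conservative summit within 200 bp (87.5%), against 3.34% of all nuclear genes. The share was 4.98% for the other genes annotated as ncRNA and 3.92% for protein-coding genes. Among other small RNA kinds it was 44.4% for tRNA, 17.9% for snoRNA and 8.53% for snRNA genes. The other list had a summit at the same number, 7, against 3.73% of nuclear genes. For 6 of them the summit lay inside the gene, 14 to 57 bp from its start with a median of 34 bp. A conservative peak overlapped 6 of the 8 genes, and 3.02% of nuclear genes. A conservative summit lay within 50 bp of 6 genes, against 2.6% of nuclear genes, and within 500 bp of 7, against 4.3%. The exceptions were srpr-1.1, whose summit lay past the 3′ end, and yrn-1, which had no peak.

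**Figure D1:**
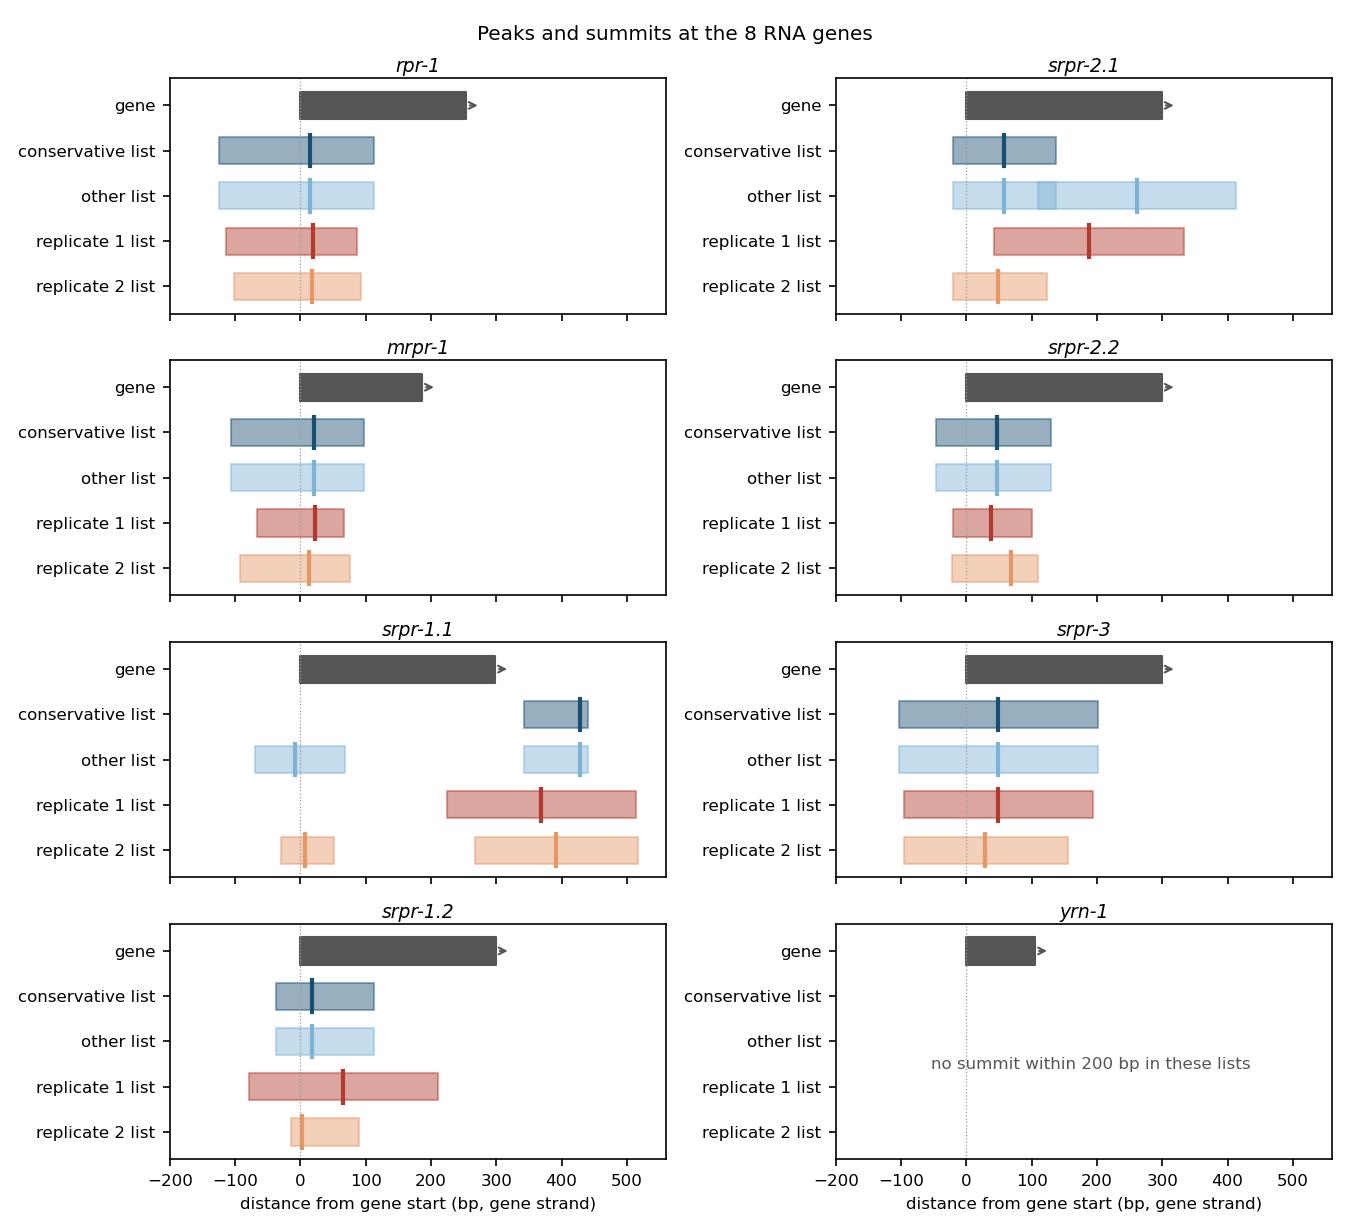
Each panel shows 1 gene as a dark bar that starts at 0 (distance in bp on the gene strand), with its peaks in 4 thresholded lists as coloured bars and their summits as vertical lines. At rpr-1 and mrpr-1 the 4 lists place the summit within 10 bp of each other, at srpr-1.1 the summits lie past the gene in all 4 lists and also near its start in 2 of them, and the yrn-1 panel has no peak.

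mrpr-1 had the highest signal of the 8 genes. It lies at chrII:7200233-7200418 on the plus strand, between genes: pcrg-1 starts 131 bp after it on the same strand. In the conservative list its peak had a signal of 382.4, rank 61 and percentile 95.4. In replicate 1's own list the signal was 152.6 (rank 67) and in replicate 2's own list 206.1 (rank 75). The site was thus among the strong peaks of every list. The summit was at position 21 in the conservative list, 22 in replicate 1 and 13 in replicate 2. The 204-bp conservative peak is shown whole, since it holds the TATA-like word and the first bases of the gene, with the gene in capitals (WBcel235).
mrpr-1 peak chrII:7200127-7200330 (+): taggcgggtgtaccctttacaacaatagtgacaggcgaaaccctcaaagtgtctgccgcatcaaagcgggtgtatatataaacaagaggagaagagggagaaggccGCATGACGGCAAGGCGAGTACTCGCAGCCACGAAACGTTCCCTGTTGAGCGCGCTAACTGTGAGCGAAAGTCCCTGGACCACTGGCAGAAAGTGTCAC
Of this peak, 98 bp lay in the gene and the rest before its start.

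rpr-1, the RNase P RNA gene, came next. It lies at I:13463955-13464207 on the plus strand, in an intron of ints-8, which runs on the opposite strand and encodes an Integrator complex subunit. Its conservative peak spanned I:13463831-13464066, with a signal of 375.1, rank 65 and percentile 95.0. Replicate 1 alone gave 184.1 (rank 44) and replicate 2 alone 180.0 (rank 99). The signals of the replicates' peaks were almost equal. The summit was at position 14 in the conservative list, 20 in replicate 1 and 18 in replicate 2, inside the gene each time. Its peak was 236 bp wide and, as at mrpr-1, reached past the gene start on both sides, covering 112 bp of the gene. The replicates' own peaks were 201 and 194 bp wide at rpr-1, and 133 and 168 bp wide at mrpr-1.

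**Figure D2:**
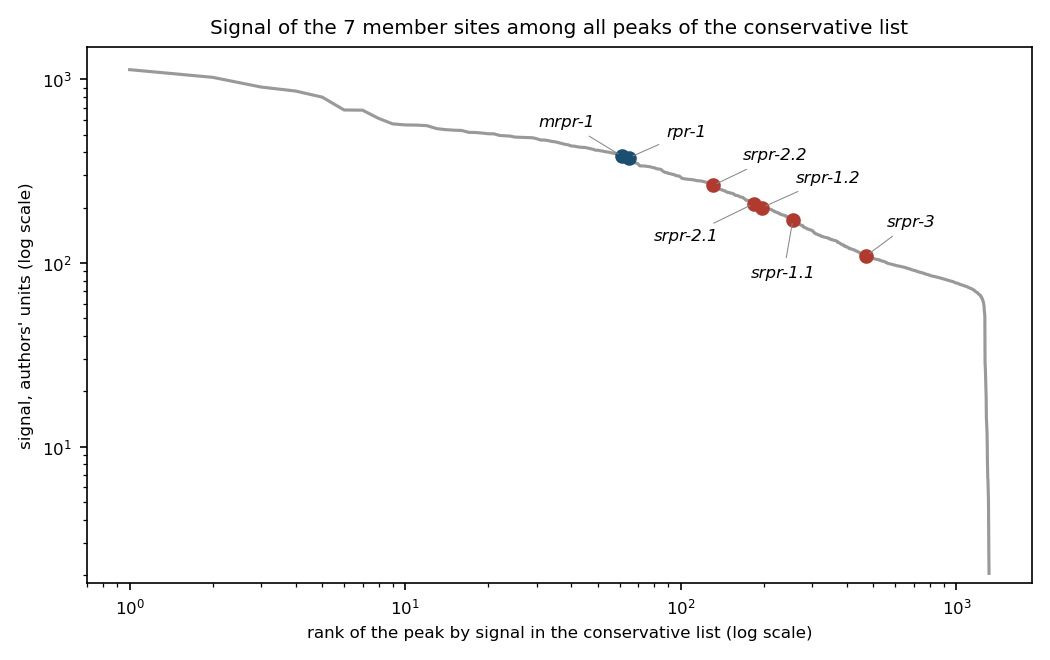
Signal (authors' units, log scale) against rank by signal (log scale) for all 1313 conservative peaks (grey line), with the 7 gene sites as points, blue for rpr-1 and mrpr-1 and red for the SRP RNA genes. The points run from rank 61 (mrpr-1) to rank 471 (srpr-3), all above the list's median signal of 94.1.

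The 5 SRP RNA genes had lower signals than these, spread from 109.5 to 264.7. srpr-2.2, at chrIII:5031410-5031708 on the minus strand in an intron of klp-6 (a kinesin gene, on the opposite strand), was the highest: its conservative signal was 264.7 (rank 131, percentile 90.0). Its signal was 122.2 in replicate 1's list (rank 109) and 104.1 in replicate 2's (rank 251). Its summits fell at 47, 37 and 68 bp in the conservative, replicate 1 and replicate 2 lists. The annotation also places the ncRNA R144.16 over its 5′ end on the same strand, and the peak overlaps both. The conservative summit lies in srpr-2.2 alone, and replicate 1's summit in both genes.

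srpr-2.1, its near copy at chrIII:5211220-5211518 on the plus strand, lies between genes, 263 bp from ZC155.4. Its conservative signal was 210.4 (rank 184, percentile 86.0), with 86.1 in replicate 1's list (rank 207) and 114.3 in replicate 2's (rank 212). The summit was at 57 bp in the conservative list and 49 bp in replicate 2, but at 188 bp in replicate 1, under a peak of 290 bp. That width is both the median and the widest in replicate 1's list. The other list also held a peak over the 3′ part of the gene, at 261 bp, with a signal of 120.4 (rank 408). In the ranked candidates behind the conservative list, that peak had a score of 791, below the lowest score of 830 in the conservative list.

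srpr-1.2, at chrIII:4369468-4369766 on the plus strand, lies in an intron of the choline kinase gene ckb-2 and on its strand. Its conservative signal was 200.2 (rank 197, percentile 85.0), with 86.1 in replicate 1's list (rank 206) and 108.2 in replicate 2's (rank 232). The summit was at 17 bp in the conservative list, 66 bp in replicate 1 and 3 bp in replicate 2. The conservative peak was 150 bp wide, and replicate 1's peak 290 bp. A weak candidate at 255 bp, with a signal of 70.1 and a score of 185, stayed under the threshold.

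srpr-1.1, the near copy of srpr-1.2 at chrIII:4378909-4379206 on the minus strand, had its strongest peak on the other side of the gene. The conservative peak at chrIII:4378766-4378863 had a signal of 172.3 (rank 255, percentile 80.6). Its summit lay 132 bp past the 3′ end of srpr-1.1, at position 429, in the coding part of the last exon of pals-26, which ends 2 bp from srpr-1.1 on the opposite strand. This peak did not overlap srpr-1.1. Replicate 1's own peak there had a signal of 87.5 (rank 201) with its summit at 368 bp and covered 74 bp of the gene, and replicate 2's had 88.1 (rank 307) at 391 bp and covered 31 bp. A peak at the start of srpr-1.1 was found in the other list, at position −9 with a signal of 104.1 (rank 529), and in replicate 2's list, at position 7 with a signal of 80.3 (rank 339). In the ranked candidates behind the conservative list the same peak had a score of 817 against the lowest kept score of 830. In replicate 1 the candidate at this start had a signal of 31.1 and a score of 424. The gene start of srpr-1.1 was therefore in 2 of the 4 thresholded lists, and the 3′ side in all 4.

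srpr-3, the most divergent SRP RNA gene, lies at chrV:9293334-9293632 on the minus strand, and the ncRNA F44A2.13 is annotated over almost the same bases. Its conservative signal was 109.5 (rank 471, percentile 64.1), the lowest of the 7 sites. Its signal was 66.2 in replicate 1's list (rank 311 of 464) and 29.0 in replicate 2's (rank 749 of 756). The replicates thus differed more here than at any of the other 6 sites. It was also the single member site with a conservative score below the maximum of 1000, at 869. The other 6 genes had a summit with that maximum score within 200 bp, against 2.43% of nuclear genes. The summit lay at 48 bp in the conservative list and in replicate 1, and at 29 bp in replicate 2. The peaks next to it in rank had signals of 109.58 (rank 470, nearest R13H4.11, score 1000) and 109.5 (rank 472, nearest C54H2.10, score 960).

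yrn-1 lies at chrIV:7499508-7499612 on the plus strand in an intron of F55G1.15. The ncRNA F55G1.20 is annotated over all of it on the opposite strand. No summit lay within 200 bp of yrn-1 in any of the 4 thresholded lists. The nearest conservative summit was 74465 bp away, and the nearest in the other list 13464 bp away. In replicate 1's list the nearest lay at 11164 bp and in replicate 2's at 74465 bp. Among the candidates ranked before any threshold, where 46.3% of nuclear genes have a summit within 200 bp in the set behind the conservative list and 46.4% in the set behind the other list, the nearest to yrn-1 was 8732 bp away in the former and 8267 bp away in the latter. Replicate 2's own candidates held 1 in the gene, at position 12, with a signal of 19.3, rank 22587 of 63171 and a score of 60, against candidates at 41.9% of nuclear genes. The summit of that candidate lies in F55G1.20 as well. Replicate 1's nearest candidate was 6008 bp away, against candidates within 200 bp of 45.3% of nuclear genes. A peak at this gene was not detectable in the thresholded lists, and the depth that bears on that is unknown.

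All 7 sites were found in the own list of each replicate, where 1.56% of nuclear genes had a summit within 200 bp in replicate 1 and 2.3% in replicate 2. The ranked candidates also give, beside each conservative peak, the signals of the matching peaks in both sets that were ranked (columns 15 and 19), which match the own candidates of replicate 1 and replicate 2 in that order. Over the 1313 conservative peaks, the median ratio of replicate 1 to replicate 2 was 0.967, with quartiles of 0.77 and 1.2. The ratio was 1.02 at rpr-1, 0.994 at srpr-1.1 and 1.17 at srpr-2.2, within those quartiles. It was 0.796 at srpr-1.2, also within them, and 0.741 at mrpr-1 and 0.753 at srpr-2.1, just below. Only srpr-3 was far outside among the 7, at 2.28. Ranked on replicate 2's signal, srpr-3 was 1311th of the 1313 peaks, and on replicate 1's signal its rank was 325. For the other 6 genes the ranks ran from 45 to 213 in replicate 1 and from 60 to 289 in replicate 2.

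**Figure D3:**
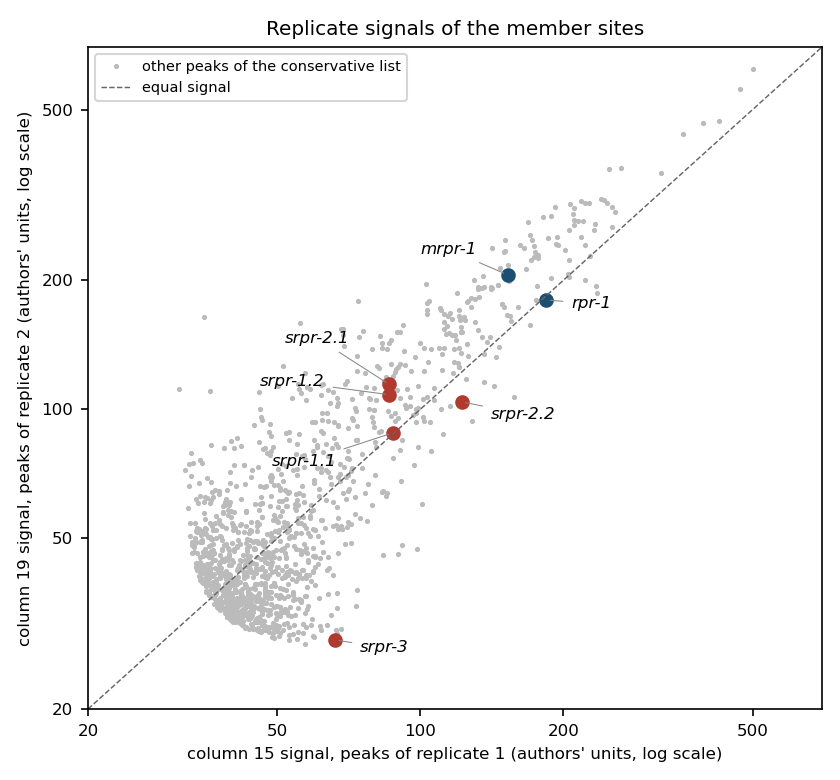
Signal of the matching peak in column 15 (replicate 1, x axis) and column 19 (replicate 2, y axis), in authors' units on log scales, for the 1313 conservative peaks (grey) and the 7 gene sites (coloured), with a dashed line at equal signal. Most gene sites lie near the line, and srpr-3 lies at the lower edge with 66.2 in replicate 1 and 29.0 in replicate 2.

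The −log10 of the global IDR, which grows as the replicates rank a peak more alike and higher, was highest at the 2 sites with the strongest signals. It was 4.10 at rpr-1, 4.07 at mrpr-1 and 3.59 at srpr-2.2. It was 3.47 at srpr-2.1, 3.43 at srpr-1.2 and 3.36 at srpr-1.1, and lowest at srpr-3 with 2.09. The peaks that missed the conservative list came close to srpr-3: 1.97 at the start of srpr-1.1 and 1.91 at the 3′ part of srpr-2.1. The lone yrn-1 candidate, ranked within replicate 2, had 0.14.

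The SRP RNA genes are near copies of each other, which limits how far a peak can be assigned to 1 of them. srpr-1.1 and srpr-1.2 were 98.3% identical over their aligned length, and srpr-2.1 and srpr-2.2 99.0%. Among these 4 genes identity ran from 94.0% to 99.0%, and srpr-3 matched them at 81.7% to 82.5%. In the 100 bp before the gene, srpr-1.1 and srpr-1.2 were 95.0% identical, and every other pair among the 5 genes was between 46.0% and 64.2%. Of the 50-base words within the gene, those found once in the genome made up 23.3% in srpr-1.1, 41.2% in srpr-1.2, 38.8% in srpr-2.1 and 40.4% in srpr-2.2. They made up 100% in srpr-3, rpr-1, mrpr-1 and yrn-1. Signals of peaks over srpr-1.2, srpr-2.1, srpr-2.2 and the start of srpr-1.1 are therefore uncertain between the copies. At this word length rpr-1, mrpr-1 and srpr-3 do not have that limit. Neither read length nor the handling of reads with several matches is given in the sources used here.

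The summits of the 4 near copies can be set beside their unique bases. A base can be covered by up to 50 unique words of 50 bases. The conservative summit was covered by 33 in srpr-1.2, 14 in srpr-2.1 and 8 in srpr-2.2. At the summit past the 3′ end of srpr-1.1 all 50 were unique, whereas the peak at its start in the other list had 40. Bases in no unique word numbered 105 in srpr-1.1, between 31 and 189 bp, and 92 in srpr-1.2, between 98 and 189 bp. They numbered 67 in srpr-2.1 and 63 in srpr-2.2, between 37 and 198 bp in either gene. Replicate 1's own summits of srpr-2.1 (188 bp) and srpr-2.2 (37 bp) fell on bases with no unique word. Whether the position and signal of these peaks move with the unique bases was not tested.

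**Figure D4:**
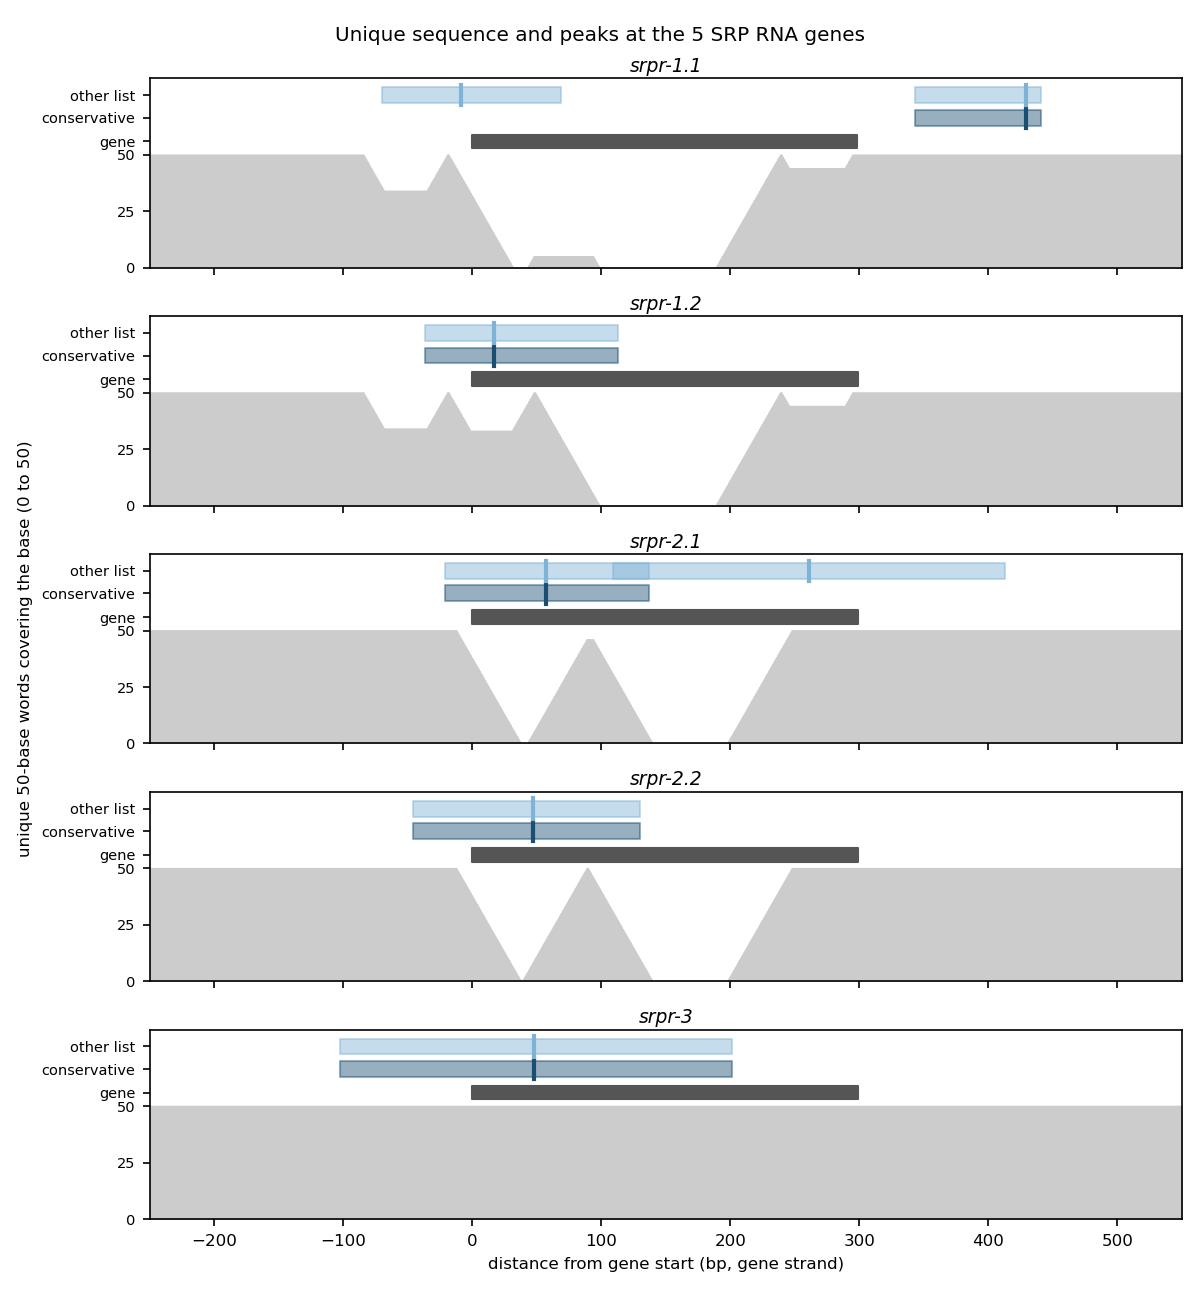
For each SRP RNA gene, the grey area gives how many unique 50-base words cover each base (0 to 50) against the distance from the gene start in bp, with the gene as a dark bar and the peaks of the conservative and other lists as blue bars with their summits. srpr-3 is unique throughout, and the 4 other genes have stretches with no unique word inside the gene. In srpr-1.1 these lie between 31 and 189 bp, where 105 bases are in no unique word and the rest have some cover.

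Outside the 8 genes, the genome held 6 further stretches like an SRP RNA gene, all on the X chromosome, 47 to 55 bp long and 81.8% to 93.6% identical to the first 55 bases of the genes. The nearest conservative summit to any of them was 7013 bp away. rpr-1, mrpr-1 and yrn-1 had no other copy by the same search.

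The summit positions were set beside those at other small RNA genes. The median position was 47 bp over the 7 genes (quartiles 19 and 52), 14 bp over 272 tRNA genes (quartiles 6 and 28), 24 bp over 11 snRNA genes (quartiles 1 and 41) and −46 bp over 62 snoRNA genes (quartiles −55 and −33). The members' median includes srpr-1.1, whose summit lies past the gene, and was 34 bp over the 6 summits inside a gene. Over the 7 genes it was 29 bp in replicate 2's own list and 48 bp in replicate 1's own list. Both values took srpr-1.1 at its strongest peak, although replicate 2's list also had a summit at 7 bp there. The other kinds were not measured in those lists. The genes of each kind above are those with a conservative summit within 200 bp. They were 44.4% of 612 tRNA genes, 8.53% of 129 snRNA genes and 17.9% of 346 snoRNA genes. rpr-1 (14 bp), srpr-1.2 (17 bp) and mrpr-1 (21 bp) fell within the tRNA quartiles, and the other 4 members past them. The 7 members are 186 to 299 bp long, and the positions were not adjusted for gene length, which differs between the kinds. None of the 7 members had its conservative summit before the gene, where most snoRNA summits lay. Signal medians were taken over distinct peaks, since 1 peak can serve several genes. The median signal was 210.4 at the members (7 peaks) and 172.2 at tRNA genes (253 peaks). It was 163.7 at snRNA genes (11 peaks) and 298.1 at snoRNA genes (61 peaks). The members' value includes the peak past srpr-1.1, which does not overlap that gene. These differences are descriptions without a test, since the kinds were set side by side with their results known.

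**Figure D5:**
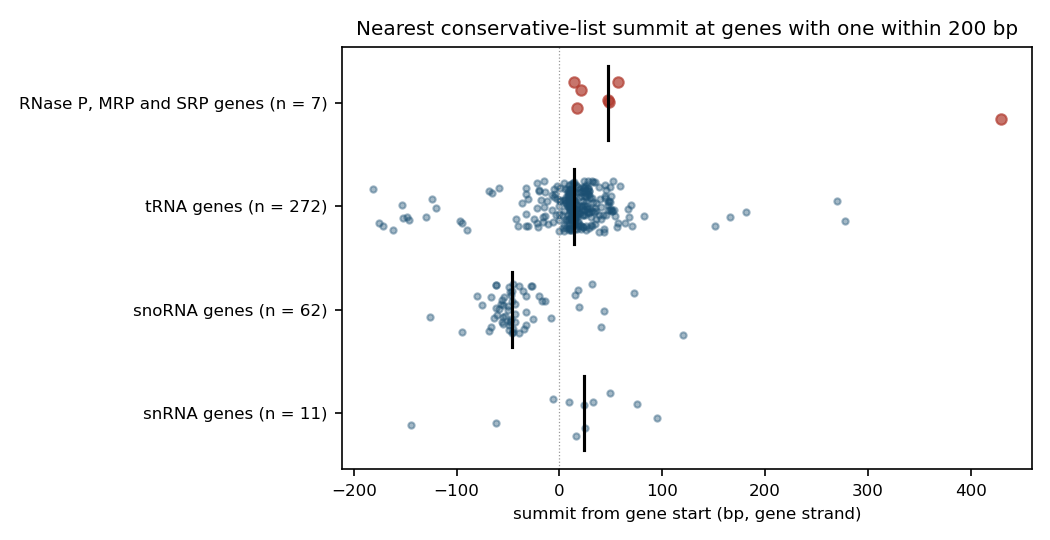
Position of the nearest conservative summit from the gene start (bp, gene strand) for the genes of each kind with a summit within 200 bp. Each point is a gene and each black bar a median, which is 47 bp for the 7 members, 14 bp for tRNA, −46 bp for snoRNA and 24 bp for snRNA genes.

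The upstream words were picked from the members' own sequences. GTATATA was the longest word shared by the 3 members outside the SRP group, compared apart, so its presence in all 3 was fixed by the search. GAAAAACC was the longest word held by at least 4 of the 8 members. Shares of other genes, for which no word was picked, are given as description only. GTATATA began at −31 in rpr-1, −35 in mrpr-1 and −31 in yrn-1, on the gene strand in the 100 bp before the gene, and in none of the SRP RNA genes on either strand. Among all nuclear genes 1.09% hold it there (1.74% on either strand), and 0.327% of tRNA genes. It contains TATATA, its own reverse complement, which 5.07% of nuclear genes and 15.5% of snRNA genes hold. The absence from the SRP RNA genes is that of the exact words only. The printed lines of srpr-1.1, srpr-1.2 and srpr-2.2 hold the shorter TATAT before the gene, which was not counted in other genes. Of the 3 genes with GTATATA, rpr-1 and mrpr-1 had the highest signals of all members, and yrn-1 had no peak. TATAAA, which overlaps the same stretch, was found in mrpr-1 alone among the 8, at −30, and in 10.9% of nuclear genes. GAAAAACC filled the last 8 bases before srpr-1.1, srpr-1.2, srpr-2.1 and srpr-2.2 and was absent from the 100 bp before srpr-3. Among nuclear genes 0.407% hold it there (0.919% on either strand).

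Words of tRNA promoters were looked for in the same way. GTTCGA, the core of the B box, was in none of the 8 genes, their 100 bp upstream or their 30 bp downstream, on either strand, and 72.2% of tRNA genes hold it in the gene. TGGCNNA, the start of the A box, was found on the gene strand in 3 of the 8 members. It began at 49 bp in rpr-1, 82 bp in mrpr-1 and 141 bp in srpr-3. In the gene, 29.7% of tRNA, 12.1% of snoRNA and 3.1% of snRNA genes hold it. These 3 members are 186 to 299 bp long, and the shares were not adjusted for gene length. A run of TTTT, the usual stop signal of RNA polymerase III, formed the last 4 bases of srpr-1.1, from 294 bp. At or after the 3′ end, the nearest such run began at 299 bp in srpr-1.2. It began at 305 bp in srpr-2.1, 306 bp in srpr-2.2, 318 bp in srpr-3, 194 bp in mrpr-1 and 105 bp in yrn-1. The gene strand also held the run inside mrpr-1, at 123 bp, and inside yrn-1, at 45 bp. rpr-1 had none in the gene or in the 30 bp after it. TTTT is a short and common word. On the gene strand, 83.0% of nuclear genes and 30.2% of snRNA genes hold it in the 100 bp before the gene. No share was counted for the 30 bp after other genes. Whether the run is more frequent there at the members was therefore not tested. A match is letters in a window only, and a missing match says nothing of a factor's binding.

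The genes for several proteins that work with these RNAs were looked at in the same list, for a summit from 1000 bp before to 200 bp after a transcript start, which 2.99% of protein-coding genes had. None was found at popl-1, popl-4, popl-5 and popl-7, which encode RNase P and MRP proteins, or at rop-1, which encodes the worm's Ro60. The RNA polymerase III subunit genes rpc-1, rpc-2, rpc-11 and rpc-25 had none, nor did brf-1 and tbp-1 of the factor TFIIIB, the 3 genes of TFIIIC (tftc-1, tftc-3 and tftc-5) and the 7 snpc genes of the snRNA-activating complex. The genes for SRP proteins are not described here.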

How the data were processed

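ChIP-seq peak lists from 2 biological replicates of worms labelled tab-1 were read as deposited on ce11, per the submitters' processing notes. Each peak's signal is the authors' deposited value, on a scale that is not stated, and was used only to rank peaks within a list or to set the replicates' values side by side. The score, as deposited by the authors, falls as the IDR rises. In the authors' ranked lists 1 column holds the −log10 global IDR. The sources used here name no aligner, peak caller, read length or depth, nor whether reads were pooled for the joint lists; intervals that rest on depth are therefore left out. Columns 15 and 19 carry no sample name. Column 15 was tied to replicate 1 because 70.5% of its peaks were identical to that replicate's own candidates and 0 to replicate 2's, and column 19 to replicate 2 with 60.6% and 0.

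Genes came from Ensembl release 115 and bases from the RefSeq genome of WBcel235, the assembly of ce11. No peak lay beyond a chromosome's end. The 200-bp limit was measured from gene to summit, and mitochondrial genes were left out. Identity came from global alignments (Biopython 1.88, match 2, mismatch −1, gap opening −3, gap extension −0.5), and copies from BLAST 2.17.0 at an e-value of 1e-05. Tables were handled with Python 3.11.15, pandas 2.3.3 and numpy 2.4.6, and the position code was tested on simulated data. The named genes were the 8 members, their neighbours, the protein partners and RNA polymerase III genes found by name, and the peaks next in rank to srpr-3. GTATATA and GAAAAACC were added after the sequences were seen. The members, lists and words were chosen with earlier results of these data known, and no test was made. No sequence of rpr-1 is shown. One group of protein partner genes found by the same rule is not reported here, so the groups described are not the whole list.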

Additional observations from a re-analysis of the deposited data

How the results depend on the processing

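The count of 7 genes with a summit held in the other list and in each replicate's own list, and with a 500-bp limit. It was 6 with a 50-bp limit or with overlap in place of distance, since srpr-1.1 dropped out, and 6 at a score of 1000 only, without srpr-3. With every ranked candidate it was 7, where 46.3% of nuclear genes had a candidate within 200 bp. Chosen after seeing the data, all candidates of replicate 1 alone gave 7, against 45.3% of nuclear genes. Those of replicate 2 alone gave 8, against 41.9%. These counts say less than that in the conservative list, where the share was 3.34%. The median percentile of 86.0 fell to between 56.7 and 69.3 in the lists of 1 replicate, and the median summit position of 47 bp ran from 29 to 48 bp. These lists are shorter (464 and 756 peaks). Of the percentiles and summit positions of single genes under these alternatives, 27 moved by more than 1 SD of the replicates' own values and 36 by less or not at all. That SD comes from 2 values per gene, which are themselves among the alternatives. It is wide where the replicates differ, as at srpr-1.2, and narrow where they lie close. The counts of moved values depend on this and are no measure of robustness. With 36-base or 100-base words, also chosen after seeing the data, unique words made up 14.8% or 54.3% of srpr-1.1 and 33.0% or 70.5% of srpr-2.2. No paired analysis was possible because there is 1 group. The read depth, which limits what can be said of yrn-1, is unknown.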
